A study of Vitis vinifera with 42 samples.

Results

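The berries described here came from Cabernet Sauvignon clusters that had been kept in the dark since E-L 29 and were sampled at E-L 31 (T1 E-L 31). They were set against berries of uncovered clusters at E-L 29, the state that all clusters shared when the bags were put on (T2 E-L 29). FPKM values scale the mapped fragments of a gene to its transcript length and to the size of the library. Members were all genes whose mean reached 1 FPKM in either group, which gave 20214 of the 28940 genes of the deposited table. Of these, 18605 reached 1 FPKM in T1 E-L 31, 19185 did so in T2 E-L 29 and 17576 did so in both. All vines were own-rooted and stood in a commercial vineyard, and all libraries came from a single season. T1 clusters were closed in layered kraft paper bags from berry pepper-corn size until harvest, and T2 clusters hung in the light throughout. The study reports that the bags were also slightly warmer than the canopy, with slightly lower relative humidity. Changes described as in the dark are therefore changes in the bag, in which these factors cannot be told apart from the loss of light. The 3 biological replicates of a group carry the letters A, B and C. Their RNA came from berries with the seeds taken out, so skin and flesh were measured together. The comparison holds both the time in the bag and the development between E-L 29 and E-L 31, which cannot be told apart in it. Uncovered berries of the later stage (T2 E-L 31) were therefore given beside many results. Where they are not given, a change holds both.

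E-L stages are those of the modified Eichhorn-Lorenz scale, and E-L 29 and E-L 31 both fall in the green growth phase, in which berry cells divide and expand and the skin still photosynthesises. In flowering plants the step from protochlorophyllide to chlorophyllide needs light. The antenna proteins that bind chlorophyll are made in the nucleus-encoded LHC family, whose transcription responds to phytochromes and cryptochromes through factors such as HY5. Young grape berries also build tannins from the phenylpropanoid and flavonoid pathways, while anthocyanins come only at ripening.

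The tissue and stage labels were checked first. L-idonate dehydrogenase (VIT_216s0100g00290), an enzyme of tartaric acid synthesis in young grape berries, had 125, 122 and 146 FPKM in T1 E-L 31, against 300.4, 339 and 345 FPKM in T2 E-L 29. It had 121, 158 and 107 FPKM in T2 E-L 31, and its mean was 13 to 48 FPKM in the 11 later groups (a marker chosen after its values were seen). MYBA1 (VIT_202s0033g00410), the switch for anthocyanin synthesis in ripening skin, was listed at 0 in all 6 libraries compared and is not a member. Seed transcripts, in contrast, were abundant in T1 E-L 31 although seeds had been removed, and their values are given with the genes that rose.

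FPKM summed to 586681, 598911 and 595588 per library in T1 E-L 31 and to 575396, 561036 and 563805 in T2 E-L 29. The 10 most abundant genes held 9.45%, 22.7% and 16.3% of the FPKM in T1 E-L 31 replicates A, B and C, against 5.09% to 5.29% in T2 E-L 29. The T1 E-L 31 libraries thus differed among themselves in this share, with B highest and A lowest. Replicates B and C of T2 E-L 29 were the closest of the 42 replicate pairs of the series. The SD of their log2 ratio was 0.0616 over 936 genes above 100 FPKM, against 0.0797 to 0.382 in the other pairs. Their chi-square per degree of freedom was 1.23 over 1284 genes (p = 4.62e-08, chi-square test on read numbers estimated from the steps of low values). Of values between 0.5 and 3.5 steps, 86% lay within 0.15 of a whole step, so errors of the estimate may enter this excess. The test therefore cannot decide whether they come from separate berries, and they were kept as separate libraries. The study describes its replicates as biological. Nothing further was given to show whether B and C are independent berry samples. Where they are not, p-values that rest on them are too small. Counts with both averaged into 1 library are given for the total and for the lists of cellulose, brassinosteroid, stilbene, pathogenesis-related and heat shock genes.

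In T1 E-L 31 against T2 E-L 29, 2675 members fell and 1101 rose, where a call asked for a change of 1 or more on the log2 scale in either direction and an adjusted p below 0.05 (limma on log2(FPKM + 1), Benjamini-Hochberg over 21902 genes). As background, 12.2% of all genes tested were called lower in T1 E-L 31 and 5.03% were called higher. Members and calls coincide here, because no gene outside the members was called. The median log2 fold change over members was -0.14, that of the called decreases -1.5 and that of the called increases 1.53. Decreases of at least 3 on the log2 scale were seen in 295 members and increases of that size in 138. Of the 20214 members, the T1 E-L 31 libraries all lay below the T2 E-L 29 libraries for 5907 and all above for 2913. These include 2509 of the called decreases and 914 of the called increases. With 3 libraries against 3, some genes separate without any difference between the groups, so the counts are a description and not a test. Of the decreases, 106 were listed at 0 in all 3 T1 E-L 31 libraries, and 51 of the increases were listed at 0 in all 3 T2 E-L 29 libraries. With B and C of T2 E-L 29 averaged, 2662 members fell and 942 rose.

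**Figure D1:**
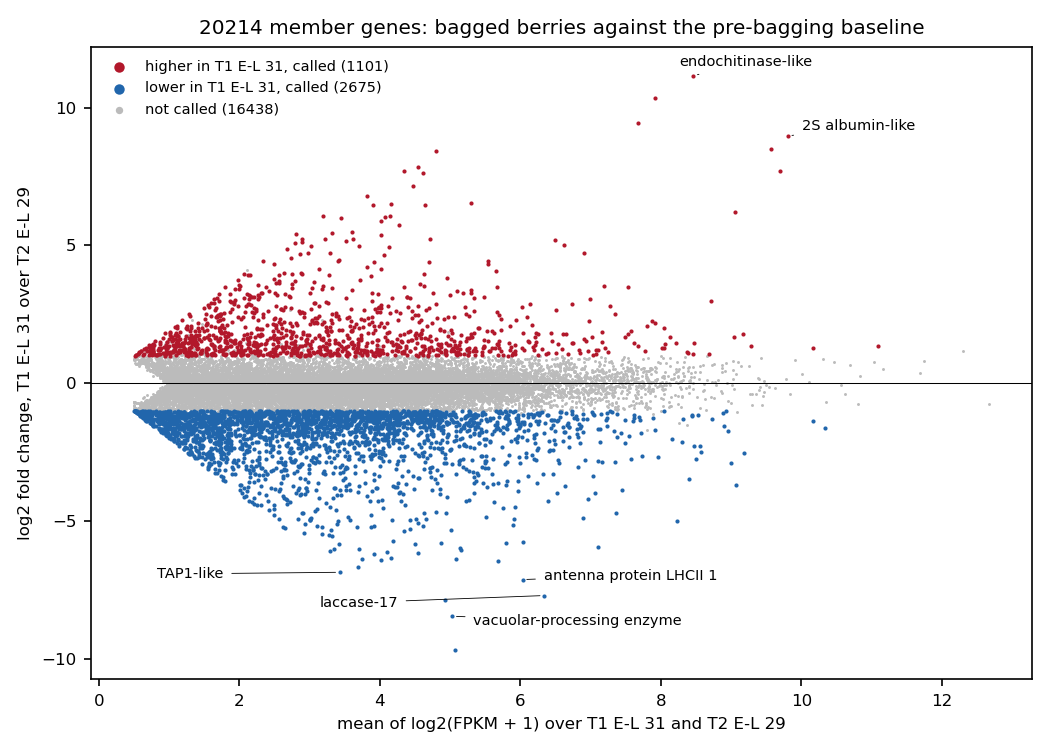
Log2 fold change of T1 E-L 31 over T2 E-L 29 (vertical axis) against the mean log2(FPKM + 1) of both groups (horizontal axis) for the 20214 members. Red points are the 1101 called higher, blue points the 2675 called lower and grey points the rest, with 6 genes named in the text labelled.

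The called decreases held 4.85%, 4.66% and 4.5% of all FPKM in T1 E-L 31, against 18.75%, 21.95% and 21.85% in T2 E-L 29. The called increases held 14.41%, 30.12% and 22.76% in T1 E-L 31, against 3.37%, 2.32% and 2.33% in T2 E-L 29. Uncovered berries at E-L 31 also differed from T2 E-L 29: 11.9% of all genes tested were lower and 6.28% higher in T2 E-L 31. Set directly against T2 E-L 31, T1 E-L 31 had 3.45% of genes lower and 2.71% higher, which is 756 and 593 genes. Without T1 E-L 31 replicate B, 368 were higher, and a fit on the 9 libraries of these 3 groups alone called 226 higher and 537 lower. The 3 comparisons share libraries, so agreement between them is not independent evidence. Of the 2675 decreases, 1845 were also called lower in T2 E-L 31 than in T2 E-L 29, and 339 were lower in bagged than in uncovered berries at E-L 31. Of the 1101 increases, 670 were also called higher in T2 E-L 31 than in T2 E-L 29, and 262 were higher in bagged than in uncovered berries at E-L 31. A level per library cannot tell fewer cells of a type from less RNA per cell, here and below.

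Antenna and photosystem genes fell together in the dark. Of the 60 members of the light harvesting and photosystem list, 43 fell, none rose and the median log2 fold change was -2.81. Summed over the list, FPKM came to 955, 805 and 940 in T1 E-L 31, against 6690, 7910 and 8130 in T2 E-L 29. T2 E-L 31 stood between them with 4520, 3160 and 3060. The groups did not overlap. In the light, 25 of the 60 fell and 2 rose (median -0.87), and 38 were lower in bagged than in uncovered berries at E-L 31 (median -1.72).

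Within that list the losses followed the kind of protein, in subgroups drawn after the values were seen. All 19 chlorophyll a/b-binding antenna proteins fell, by 1.35 to 7.12 on the log2 scale. All 9 nucleus-encoded photosystem I subunits fell as well (median -3.14), and so did 12 of 13 photosystem II subunits and oxygen-evolving proteins (median -3). Of 7 PsbP-domain relatives, 3 fell. None of 12 copies of proteins that the chloroplast genome encodes, such as CP43, CP47, the P700 apoproteins and D1 and D2, was called, and their log2 fold changes ran from -0.88 to 0.54. Both D1 copies (VIT_213s0019g02630 and VIT_211s0052g01680) did rise in the light, by 1.61 and 3.52 on the log2 scale, and were lower in bagged than in uncovered berries at E-L 31 (-1.83 and -2.98). These chloroplast-type transcripts are low in libraries made from poly(A) RNA and have near-identical copies between which reads may be split, so their values are uncertain.

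The antenna gene that fell most, VIT_210s0003g02900 (LHCII type 1, the major light-harvesting complex of photosystem II), had 3.56, 6.73 and 3.38 FPKM in T1 E-L 31, against 514, 896 and 901 FPKM in T2 E-L 29. Its log2 fold change was -7.12 (SE 0.29, adjusted p = 1.73e-19). It also fell in the light, to 44.5, 21.4 and 15.3 FPKM in T2 E-L 31, and T1 remained 2.25 below T2 there on the log2 scale (difference -2.25, adjusted p = 6.51e-07). A second LHCII type 1 gene, VIT_212s0028g00320, had 1.14, 2.35 and 1.81 FPKM in T1 E-L 31, against 215, 180.1 and 188 FPKM in T2 E-L 29 and 52.9, 16.8 and 30.01 FPKM in T2 E-L 31. Its log2 fold change was -6.16 in the dark and -2.65 in the light, and the difference at E-L 31 was -3.51 (adjusted p = 3.7e-10). LHCII type 1 genes form a family of similar copies, so reads may be shared among them.

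Of the photosystem II proteins, oxygen-evolving enhancer 1 (VIT_218s0001g11710), which stabilises the water-splitting manganese cluster, had 0.35, 0.5 and 0.55 FPKM in T1 E-L 31, against 29.9, 41.9 and 40.7 FPKM in T2 E-L 29 (log2 fold change -4.7, SE 0.17, adjusted p = 9.05e-21). The 22 kDa protein PsbS (VIT_218s0001g02740), which protects the photosystem from excess light, had 13.9, 12.7 and 11.7 FPKM in T1 E-L 31 and 204, 159 and 155 FPKM in T2 E-L 29. In T2 E-L 31 PsbS still had 124, 69.9 and 76.6 FPKM, so its log2 fold change was -3.65 in the dark and -0.97 in the light. An early light-induced protein (ELIP, VIT_205s0020g04110), a chlorophyll-binding protein made under light stress, had 26.1, 25.3 and 14.1 FPKM in T1 E-L 31, against 139, 59.3 and 51.0 FPKM in T2 E-L 29. It fell in the dark (log2 fold change -1.78, adjusted p = 4.82e-06) and was not called in the light (0.22).

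**Figure D2:**
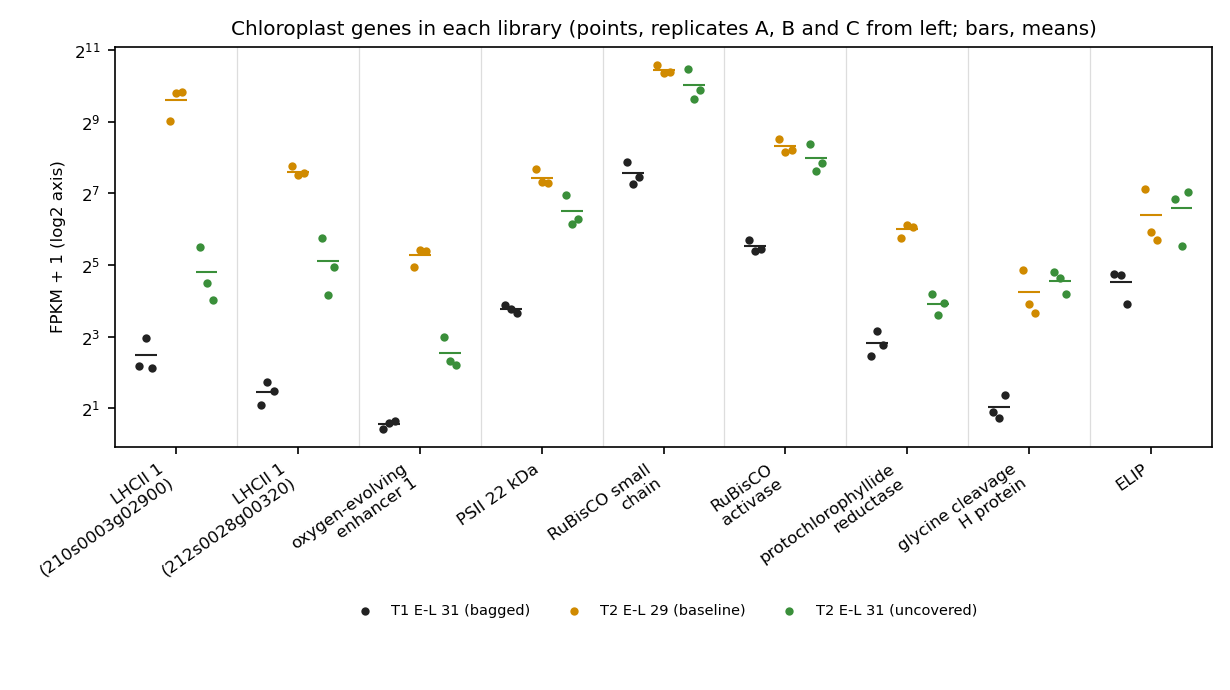
FPKM + 1 on a log2 axis for 9 genes of the chloroplast and of photorespiration, with 1 point per library (replicates A, B and C from left) and a bar at the mean, for T1 E-L 31, T2 E-L 29 and T2 E-L 31 from left to right. In all 9 genes the 3 T1 E-L 31 points lie below those of both T2 groups.

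Genes that make chlorophyll fell with those that bind it. Of 15 members of the chlorophyll synthesis list, 10 fell and none rose (median -1.4), while 5 fell in the light. The protochlorophyllide reductase VIT_219s0014g03160, the light-dependent step, had 4.53, 7.85 and 5.82 FPKM in T1 E-L 31, against 53.4, 68.7 and 66.1 FPKM in T2 E-L 29 (log2 fold change -3.19, SE 0.2, adjusted p = 1.82e-14). The H subunit of magnesium chelatase (VIT_208s0007g08540), which puts magnesium into the ring, had 10.3, 11.8 and 10.3 FPKM in T1 E-L 31, against 96.9, 68.3 and 68.4 FPKM in T2 E-L 29. It was also lower in the light, where T2 E-L 31 had 28.4, 14.6 and 15.96 FPKM. Only 2 of the 15 differed between T1 and T2 at E-L 31, protochlorophyllide reductase among them (-1.11, adjusted p = 0.000123).

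Carbon fixation genes fell in the dark as well. Of 17 members of the Calvin cycle list, 7 fell and 1 rose in T1 E-L 31, against 2 that fell and 2 that rose in T2 E-L 31, and 9 were lower in bagged than in uncovered berries at E-L 31. The RuBisCO small chain (VIT_217s0000g03690), part of the enzyme that fixes CO2, had 234, 152 and 175 FPKM in T1 E-L 31, against 1527, 1307 and 1345 FPKM in T2 E-L 29 (log2 fold change -2.91, SE 0.18, adjusted p = 9.58e-15). Uncovered berries had 1407, 791 and 952 FPKM at E-L 31. RuBisCO activase (VIT_206s0004g05180), which frees the enzyme of inhibitors, had 51.2, 40.9 and 42.7 FPKM in T1 E-L 31, against 367, 283 and 297 FPKM in T2 E-L 29 and 333, 197 and 230 FPKM in T2 E-L 31. For both genes the T1 E-L 31 libraries lay below all others, and the change in the light was not called (-0.45 and -0.35).

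Some other genes linked to photosynthesis were likewise lower in bagged than in uncovered berries at E-L 31. The H protein of glycine cleavage (VIT_202s0012g01120), a photorespiratory enzyme complex of mitochondria, had 0.85, 0.66 and 1.59 FPKM in T1 E-L 31, against 27.9, 14.04 and 11.7 FPKM in T2 E-L 29 and 26.98, 23.8 and 17.1 FPKM in T2 E-L 31. It fell by 3.15 on the log2 scale in the dark (adjusted p = 8.26e-13) and changed by 0.39 in the light. A chloroplast thioredoxin of M type (VIT_218s0001g15310), which passes reducing power from photosystem I to Calvin cycle enzymes, had 0.51, 3.39 and 3.51 FPKM in T1 E-L 31, against 54.1, 43.4 and 42.8 FPKM in T2 E-L 29 and 38.3, 20.2 and 24.02 FPKM in T2 E-L 31. Its shortfall against T2 E-L 31 was -3.15 (adjusted p = 4.23e-08). Carotenoid genes, whose products protect chlorophyll, had 10 of 27 members lower and 2 higher, against 4 lower and 1 higher in the light, and 5 were lower in bagged than in uncovered berries at E-L 31. Violaxanthin de-epoxidase (VIT_204s0043g01010), the enzyme of the xanthophyll cycle in strong light, had 3.41, 3.22 and 3.43 FPKM in T1 E-L 31, against 14.9, 11.5 and 11.4 FPKM in T2 E-L 29. Of 36 starch genes, 4 were lower and none higher in bagged than in uncovered berries at E-L 31. Against T2 E-L 29, 4 fell and 2 rose, shares near those over all genes tested. An ADP-glucose pyrophosphorylase (VIT_205s0020g02880), which makes the precursor of starch, had 0.92, 1.45 and 0.49 FPKM in T1 E-L 31, against 9.64, 5.87 and 6.58 FPKM in T2 E-L 29.

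At later stages the summed light harvesting FPKM of bagged berries stayed below that of uncovered berries, as a description of group means. T1 had 900 at E-L 31, and 555, 349, 206 and 147 at the 4 sampled stages that followed. T2 had 7580 at E-L 29 and 3580, 906, 518, 377 and 211 at the same 5 stages. The gap at E-L 31 was thus the widest of the 5, and uncovered berries at E-L 35 had reached the level that bagged berries had at E-L 31. T8 berries, which were in the bag only between E-L 35 and E-L 36, had 342, 329 and 209 at E-L 36 and the stages after it.

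**Figure D3:**
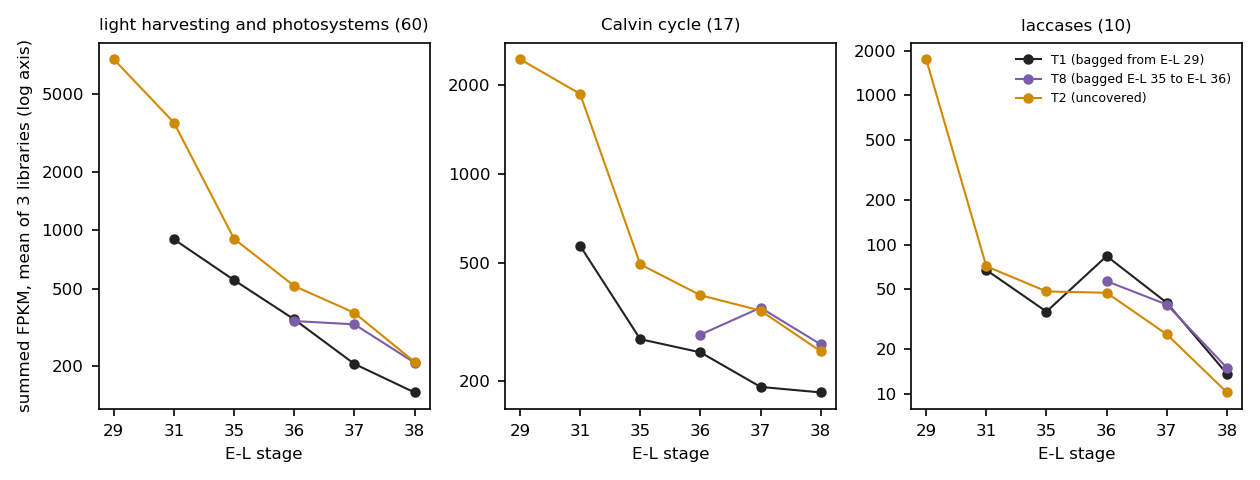
Summed FPKM (mean of 3 libraries, log axis) against E-L stage for 3 gene lists, in T1, T8 and T2. Light harvesting genes had 900 in T1 E-L 31, against 7580 in T2 E-L 29 and 3580 in T2 E-L 31, whereas the laccases had 67.5 in T1 E-L 31, against 1750 in T2 E-L 29 and 71.5 in T2 E-L 31.

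Laccases and cellulose synthases of the secondary wall fell too, in the light as in the dark. The laccases, copper enzymes that oxidise monolignols to lignin, had 9 of 10 members lower (median log2 fold change -3.55), against 8 in the light and none between T1 and T2 at E-L 31. Laccase-17 (VIT_208s0007g00690) had 0.31, 22.5 and 0.21 FPKM in T1 E-L 31, against 373, 953 and 941 FPKM in T2 E-L 29 and 0.42, 0.11 and 25.3 FPKM in T2 E-L 31. In each E-L 31 group 1 replicate held nearly all of the remaining transcript. A second laccase-17 gene, VIT_206s0004g04050, had 0.15, 0.42 and 0.16 FPKM in T1 E-L 31, against 48.1, 101.8 and 98.1 FPKM in T2 E-L 29 (log2 fold change -6, SE 0.23, adjusted p = 5.5e-20).

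Cellulose synthases of the secondary wall moved with the laccases. VIT_207s0005g04110 (CESA) had 0.73, 16.4 and 1.02 FPKM in T1 E-L 31, against 184, 475 and 456 FPKM in T2 E-L 29 (log2 fold change -6.45, SE 0.63, adjusted p = 3.84e-10). CESA8 (VIT_210s0003g01560) had 0.56, 11.6 and 1 FPKM in T1 E-L 31 and 153, 278 and 272 FPKM in T2 E-L 29. CESA7 (VIT_211s0037g00530) had 0.37, 13.4 and 0.65 FPKM in T1 E-L 31 and 120, 264 and 259.5 FPKM in T2 E-L 29. In Arabidopsis CESA7 and CESA8 make the cellulose of xylem walls. Here all 3 were highest in replicate B among the T1 E-L 31 libraries, as was laccase-17. In T2 E-L 31 VIT_207s0005g04110 had 1.18, 0.3 and 14.3 FPKM and CESA8 had 0.36, 0.3 and 11.3 FPKM. Replicate B of T1 E-L 31 and replicate C of T2 E-L 31 also had the most seed transcript of their groups. The part of that transcript in these levels was not tested. The differences of the 3 genes between T1 and T2 at E-L 31 lay between 0.04 and 0.29 and were not called. A further cellulose synthase, VIT_205s0049g00050, rose, with 16.5, 8.44 and 10.4 FPKM in T1 E-L 31, against 1.09, 0.38 and 0.1 FPKM in T2 E-L 29. Over the cellulose list of 34 members, 7 fell and 6 rose, and only 2 rose without T1 E-L 31 replicate A or without T2 E-L 29 replicate C. Without T1 E-L 31 replicate C, with B and C of T2 E-L 29 averaged, or in a fit on the 6 libraries alone, 3 rose.

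The gene with the largest fall under the rule for named genes was a vacuolar-processing enzyme (VIT_209s0054g00690), a cysteine protease that matures vacuolar proteins. It had 0.69, 1.42 and 0.23 FPKM in T1 E-L 31, against 553, 614 and 635 FPKM in T2 E-L 29 (log2 fold change -8.45, SE 0.17, adjusted p = 7.86e-28). T2 E-L 31 had 0.23, 0 and 0.34 FPKM, so the transcript was near 0 in the light too. A gene like TAP1 (VIT_204s0008g04440), first described in the tapetum of snapdragon anthers, was listed at 0 in all T1 E-L 31 libraries, against 121, 114 and 109 FPKM in T2 E-L 29, and was also listed at 0 in all T2 E-L 31 libraries. A pathogenesis-related protein 1 (VIT_211s0052g01650) had 0.76, 1.41 and 0.15 FPKM in T1 E-L 31, against 93.9, 141 and 144 FPKM in T2 E-L 29. All 12 of the largest decreases named by the rule were called lower in T2 E-L 31 as well, and only the 2 LHCII genes among them differed between T1 and T2 at E-L 31.

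Many genes of wall loosening and of the surface were called lower, although the summed level of their lists was not lower in each case. Of 15 expansins, proteins that let growing walls creep, 9 fell and 2 rose, against 6 and 4 in the light. Expansin-A1 (VIT_214s0108g01020) had 1.46, 0 and 0.39 FPKM in T1 E-L 31, against 173, 69.5 and 72.1 FPKM in T2 E-L 29. Of 58 pectin enzymes, 27 fell and 3 rose, the 3 becoming 5 without T1 E-L 31 replicate B, and in the light 23 fell and 7 rose. Their summed FPKM nonetheless overlapped, with 1480, 1010 and 1280 in T1 E-L 31, against 1470, 1110 and 1110 in T2 E-L 29. A polygalacturonase (VIT_205s0020g00420) had 0.43, 0.68 and 0.17 FPKM in T1 E-L 31, against 61.5, 34.7 and 36.3 FPKM in T2 E-L 29. Of 72 cuticle and wax genes, 35 fell and 6 rose, against 36 and 2 in the light, and their summed FPKM was 742, 886 and 844 in T1 E-L 31, against 1390, 1700 and 1720 in T2 E-L 29. Of 40 xyloglucan endotransglucosylases, 12 fell and 1 rose, against 10 and 5 in the light, and 6 fell in a fit on the 6 libraries alone. Their summed FPKM overlapped as well, with 1380, 1220 and 1570 in T1 E-L 31, against 1780, 1040 and 1070 in T2 E-L 29. In aquaporins, the water channels of membranes, 11 of 24 fell and 2 rose, against 9 and 1 in the light.

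Expansin-A8 (VIT_213s0067g02930) was a case apart. It had 3.7, 1.35 and 4.54 FPKM in T1 E-L 31, against 12.5, 6.05 and 4.97 FPKM in T2 E-L 29 and 112, 43.2 and 160.3 FPKM in T2 E-L 31. In the dark it fell (log2 fold change -1.07, SE 0.32, adjusted p = 0.00713), and in the light it rose (3.49, adjusted p = 1.18e-10), which gave a difference of -4.56 at E-L 31 (adjusted p = 5.64e-12). The decrease in the dark was called in 12 of 17 alternative fits, and not without T1 E-L 31 replicate B (-0.7) or T2 E-L 29 replicate A (-0.72). No T1 library overlapped with T2 E-L 31.

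The cell cycle, cytokinin and auxin lists had more members lower than higher, with and without the bag. In the cell cycle list 16 of 80 members fell and none rose, against 28 in the light, and none differed between T1 and T2 at E-L 31. Cyclin D3-1 (VIT_218s0001g09920), which starts division in response to cytokinin, had 0.7, 0.54 and 0.6 FPKM in T1 E-L 31, against 12.8, 4.91 and 3.61 FPKM in T2 E-L 29. In cytokinin signalling 24 of 80 fell and 3 rose, against 25 and none in the light. In auxin signalling 24 of 93 fell and 5 rose, against 23 and 9 in the light. The auxin influx carrier VIT_203s0038g02140 had 0.37, 0.47 and 0.64 FPKM in T1 E-L 31, against 10.5, 7.63 and 10.3 FPKM in T2 E-L 29. MADS-box floral factors had 6 of 28 members lower and 2 higher, against 11 and none in the light. They include an AP3-like petal and stamen factor (VIT_218s0001g13460). This factor had 0.2, 2.5 and 0.6 FPKM in T1 E-L 31 and 9.91, 11.6 and 6.1 FPKM in T2 E-L 29. Histones had 7 of 39 lower and 1 higher, against 9 and none in the light. In the fit on the 6 libraries 3 histones fell in T1 E-L 31. Ribosomal proteins differed from these lists: 7 of 202 fell and 1 rose, a share of decreases below the 12.2% over all genes tested, and the 7 became 4 without T2 E-L 29 replicate A. In the light 12 ribosomal proteins rose and 1 fell. Their summed FPKM was 25400, 21200 and 22200 in T1 E-L 31, against 21700, 21000 and 21400 in T2 E-L 29 and 29900, 33800 and 29300 in T2 E-L 31.

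Phenylpropanoid and flavonoid genes divided by step and by gene copy. The entry enzymes PAL, C4H and 4CL had 6 of 24 members lower and 6 higher in T1 E-L 31, against 8 lower and 1 higher in T2 E-L 31, and 8 were higher in bagged than in uncovered berries at E-L 31. C4H (VIT_206s0004g08150), which hydroxylates cinnamic acid, had 52.9, 139 and 66.6 FPKM in T1 E-L 31, against 240.4, 447 and 421 FPKM in T2 E-L 29 and 26.6, 18.8 and 56.4 FPKM in T2 E-L 31. It fell in both, by 2.16 in the dark and by 3.5 in the light on the log2 scale. PAL (VIT_206s0004g02620), the first enzyme of the pathway, had 21.4, 87.8 and 30.4 FPKM in T1 E-L 31, against 94.3, 44.98 and 48.3 FPKM in T2 E-L 29 and 5, 2.12 and 26.6 FPKM in T2 E-L 31. The dark change of PAL (-0.6, adjusted p = 0.325) was within the spread of the libraries, whereas the gene fell in the light (-2.9). Without T1 E-L 31 replicate B, PAL was called lower in the dark too (-1.18).

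Chalcone synthase and flavanone 3-hydroxylase, which open the flavonoid branch, are given next. None of the 10 members of the chalcone and flavanone list was called in T1 E-L 31, while in T2 E-L 31 6 fell and 1 rose. CHS VIT_214s0068g00920 had 83.9, 426 and 154 FPKM in T1 E-L 31, against 422, 150.03 and 154 FPKM in T2 E-L 29 and 34.3, 10.6 and 106 FPKM in T2 E-L 31. Its dark change was -0.27 (SE 0.5, adjusted p = 0.697), its light change -2.61, and the difference at E-L 31 was 2.33 (adjusted p = 0.000623). A second CHS, VIT_205s0136g00260, had 83.8, 358 and 204 FPKM in T1 E-L 31 and 344, 192 and 192 FPKM in T2 E-L 29. F3H (VIT_204s0023g03370) had 39.2, 222 and 92.0 FPKM in T1 E-L 31, against 211, 112 and 109.8 FPKM in T2 E-L 29 and 26.3, 19.5 and 49.5 FPKM in T2 E-L 31. The dark change of F3H was -0.56 (adjusted p = 0.224), and -1.18 and called without T1 E-L 31 replicate B. Without T1 E-L 31 replicate A all 3 genes changed sign, to 0.26, 0.21 and 0.06, none of them called. In PAL, both CHS genes and F3H, replicate B of T1 E-L 31 was highest, which was also the library with most seed transcript, and replicate C of T2 E-L 31 was highest among its group, likewise. The part of that transcript in these levels was not tested.

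The later flavonoid steps were less uniform. F3'5'H, the hydroxylases that lead to trihydroxylated flavonoids, had 8 of 12 members lower in the dark and 10 in the light, with 1 difference at E-L 31. Their summed FPKM was 33, 56 and 36.3 in T1 E-L 31, against 163, 192 and 169 in T2 E-L 29. They lie in a cluster of near-identical copies, between which reads may be split. Leucoanthocyanidin dioxygenase VIT_210s0003g02450 rose, with 66.2, 54.02 and 47.9 FPKM in T1 E-L 31, against 13.6, 11.1 and 9.73 FPKM in T2 E-L 29 (log2 fold change 2.19, SE 0.11, adjusted p = 5.44e-17). In the light it rose by 2.1 on the same scale. The other leucoanthocyanidin dioxygenase named by the rule, VIT_202s0025g04720, fell, with 26.8, 147 and 43.8 FPKM in T1 E-L 31, against 253, 147 and 142 FPKM in T2 E-L 29 and 41.1, 31.1 and 59.7 FPKM in T2 E-L 31 (-1.62, adjusted p = 0.00016). This call was kept by 15 of 17 alternatives and lost in the fits on the 6 and on the 9 libraries. Over the list of DFR and LDOX genes 2 of 9 rose and 2 fell, against 2 and 2 in the light. LAR1 (VIT_201s0011g02960) had 2.65, 14.5 and 1.95 FPKM in T1 E-L 31, against 14.6, 8.41 and 9.58 FPKM in T2 E-L 29 (-1.07, adjusted p = 0.00948), and replicate B again stood above A and C. The call of LAR1 was kept by 11 of 17 alternatives, and lost without T1 E-L 31 replicate A or C (-0.78 and -0.62) or T2 E-L 29 replicate A (-0.86). A second LAR gene (VIT_217s0000g04150), which makes catechin, had 46.8, 62.4 and 74.1 FPKM in T1 E-L 31, against 48.8, 51.5 and 49.8 FPKM in T2 E-L 29, an overlap (0.26, adjusted p = 0.543). It was 1.1 higher in bagged than in uncovered berries at E-L 31 on the log2 scale (adjusted p = 0.0088). FLS (VIT_218s0001g03470), a flavonol synthase, had 0, 0.13 and 0.13 FPKM in T1 E-L 31, against 2.83, 9.38 and 11.6 FPKM in T2 E-L 29. It fell by 2.87 in the dark and by 2.71 in the light on the log2 scale. Over the FLS list, which also holds genes annotated otherwise, 4 of 17 rose and 2 fell, against 6 and 3 in the light. The summed FPKM of that list was 340, 349 and 335 in T1 E-L 31, against 243 in each T2 E-L 29 library. MYBPA1 (VIT_215s0046g00170), a regulator of tannin genes, had 8.51, 38.4 and 14.7 FPKM in T1 E-L 31, against 28.5, 43.7 and 44.97 FPKM in T2 E-L 29. That fall (-1.12, adjusted p = 0.0193) was kept by 8 of 17 alternative fits. It was lost without T1 E-L 31 replicate A or C (-0.66 and -1.02) and without T2 E-L 29 replicate B or C (-1.03 and -1.01). CAD (VIT_204s0044g00210), of the monolignol branch, had 10.5, 51.4 and 20.8 FPKM in T1 E-L 31, against 2.42, 1.31 and 2.52 FPKM in T2 E-L 29. Its rise (2.96, adjusted p = 0.0266) was kept by 11 of 17 alternatives, and lost without T1 E-L 31 replicate B or C (2.38 and 3.02) or T2 E-L 29 replicate B (2.76).

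Of 31 photoreceptor genes 4 fell and none rose, and of 69 light signalling genes 11 fell and 3 rose, with 7 lower after median-of-ratios scaling. These shares of decreases lie near the 12.2% over all genes tested. VIT_209s0002g05990, which the study names CRY2, a blue-light receptor, had 1.25, 1.19 and 1.43 FPKM in T1 E-L 31, against 5.09, 5.52 and 5.19 FPKM in T2 E-L 29 and 6.21, 3.34 and 4.85 FPKM in T2 E-L 31. It fell in the dark (-1.45, SE 0.19, adjusted p = 1.27e-07) and not in the light (-0.14). HYH (VIT_205s0020g01090) had 1.59, 1.63 and 0.65 FPKM in T1 E-L 31, against 10.5, 3.5 and 5.14 FPKM in T2 E-L 29 and 15.1, 7.46 and 10.4 FPKM in T2 E-L 31. It was 2.37 lower in bagged than in uncovered berries at E-L 31 on the log2 scale (difference -2.37, adjusted p = 8.93e-09). HY5 (VIT_204s0008g05210) had 18.4, 19.5 and 10.5 FPKM in T1 E-L 31, against 18.3, 43.8 and 41.5 FPKM in T2 E-L 29 and 20.7, 19.1 and 15.1 FPKM in T2 E-L 31. Its groups overlapped, its change of -1 lay at the threshold and was kept by 9 of 17 alternatives, and the difference at E-L 31 was -0.21. It was lost without T1 E-L 31 replicate C (-0.74) and without T2 E-L 29 replicate B or C (-0.79 and -0.83). These 3 names are the study's. The deposited annotation pairs the same identifiers with a photolyase, a protein that acts with TOR and a cellulose synthase-like protein, so the names are uncertain. A CONSTANS-like zinc finger factor (VIT_201s0011g03520), of a family that acts in light responses, had 4.7, 4.25 and 3.76 FPKM in T1 E-L 31, against 15.6, 18.7 and 20.4 FPKM in T2 E-L 29.

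Seed storage genes were among the largest increases. The largest of all was an endochitinase-like gene (VIT_200s1290g00010), of a family of defence enzymes, which had 5687, 21943 and 14454 FPKM in T1 E-L 31, against 0, 8.07 and 15.6 FPKM in T2 E-L 29 and 201.1, 119 and 3959 FPKM in T2 E-L 31. A basic 7S globulin-like gene (VIT_214s0128g00200) had 3851, 12974 and 9008 FPKM in T1 E-L 31 and 1.99, 5.12 and 10.2 FPKM in T2 E-L 29. A 2S albumin-like gene (VIT_219s0177g00090), whose family stores nitrogen in seeds, had 5861, 31909 and 21125 FPKM in T1 E-L 31, against 82.98, 15.7 and 21.2 FPKM in T2 E-L 29 and 155, 154 and 5386 FPKM in T2 E-L 31. These 3 genes held 2.62%, 11.2% and 7.49% of all FPKM in T1 E-L 31 replicates A, B and C, against 0.00515% to 0.0148% in T2 E-L 29. In T2 E-L 31 they held 0.0851%, 0.0562% and 2.07%. The log2 fold changes in the dark were 11.16, 10.34 and 8.97 (adjusted p = 2.82e-06, 1.37e-06 and 8.23e-07).

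The same order of libraries, B above C above A, also ran through genes known from maturing seeds. Isocitrate lyase (VIT_212s0059g02350), the glyoxylate cycle enzyme of oil-storing seeds, had 75.4, 446 and 161 FPKM in T1 E-L 31, against 5, 0 and 0.28 FPKM in T2 E-L 29. The aquaporin TIP3-2 (VIT_216s0039g00220), of a type found in protein storage vacuoles, had 63.6, 243 and 133 FPKM in T1 E-L 31, against 1.28, 0 and 0.3 FPKM in T2 E-L 29. The LEA protein Dc3 (VIT_209s0002g06070), of a group that protects drying embryos, had 53.9, 293 and 127 FPKM in T1 E-L 31, against 0.24, 1.16 and 1.51 FPKM in T2 E-L 29. MOTHER OF FT AND TFL1 (VIT_217s0000g02630), a regulator of seed germination in Arabidopsis, had 28.6, 285 and 105 FPKM in T1 E-L 31, against 2.38, 0 and 0.25 FPKM in T2 E-L 29. The 12 largest increases named by the rule also held genes whose annotation is not that of a seed gene. They were the endochitinase-like gene and a pair of nepenthesin-1 aspartic proteinases (log2 fold changes 7.72 and 6.5 for VIT_208s0007g02460 and VIT_208s0007g02455). A xyloglucan endotransglucosylase 25 (7.63, VIT_211s0052g01230) and an HSP20 protein (6.05, VIT_204s0008g01610) were the others. The call of the HSP20 gene was lost without T2 E-L 29 replicates B and C. Of 8 late embryogenesis abundant genes 5 rose, and of 7 seed storage genes 3 rose and 1 fell. Of the 12 largest increases under the naming rule, 11 had their highest T1 value in replicate B and 11 their lowest in A, 8 were also higher in T2 E-L 31 than in T2 E-L 29, and 11 were higher in bagged than in uncovered berries at E-L 31.

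A score of seed markers, taken as the average of log2(FPKM + 1) over 16 storage and late embryogenesis genes, was 4.75, 6.04 and 5.41 in T1 E-L 31, against 2.38, 2.36 and 2.42 in T2 E-L 29. It was 3.46, 2.99 and 4.99 in T2 E-L 31, and ran from 2.24 to 6.29 over the libraries of the other groups. A high score was thus not confined to T1 E-L 31. The late embryogenesis genes alone had 4.1, 5.71 and 4.77 in T1 E-L 31 and up to 7.41 in the other groups. The storage genes alone had 5.41, 6.37 and 6.06 in T1 E-L 31, against 3.75, 3.39 and 5.44 in T2 E-L 31. Replicate C of T2 E-L 31 thus lay just above replicate A of T1 E-L 31. In the groups of later stages the storage genes reached up to 5.17. T1 E-L 31 exceeded T2 E-L 29 by 3.01, with no overlap (exact permutation test, two-sided, p = 0.1, the smallest that 3 libraries against 3 allow). The score includes the 7S globulin, the 2S albumin and LEA Dc3 named above, so it restates their values and adds no separate evidence. Among the 1101 increases, 36 reached at least 5 on the log2 scale, and 34 of these were highest in replicate B. Over all 1101, A, B and C were highest in 410, 380 and 311, and 309 ran in the order B, C, A from high to low. The part of seed tissue in these increases was not tested.

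**Figure D4:**
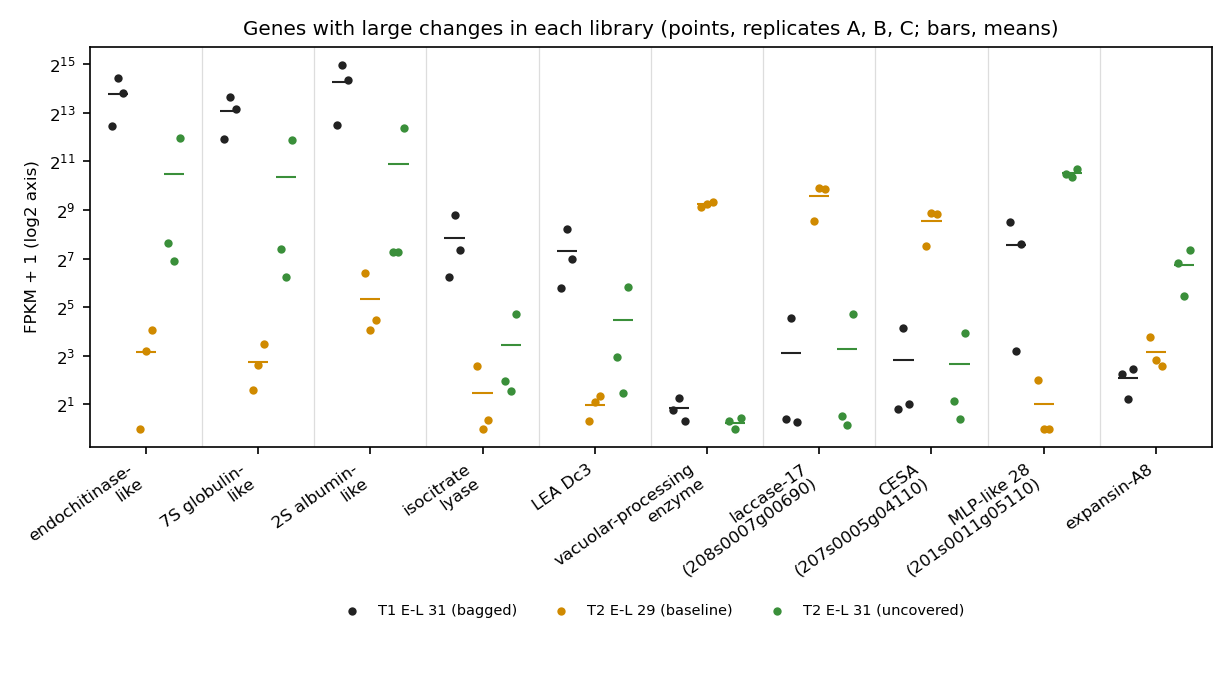
FPKM + 1 on a log2 axis for 10 genes, with 1 point per library (replicates A, B and C from left) and a bar at the mean, for T1 E-L 31, T2 E-L 29 and T2 E-L 31 from left to right. The 5 genes from the endochitinase-like gene to LEA Dc3 lie higher in all T1 E-L 31 libraries than in T2 E-L 29, the wall genes and the vacuolar-processing enzyme lie lower at E-L 31 with and without the bag, and the last pair shows genes that were higher in T2 E-L 31 than in T1 E-L 31.

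Sucrose synthase VIT_205s0077g01930, which splits sucrose for use in the cell, went opposite ways. It had 36.02, 304 and 86.3 FPKM in T1 E-L 31, against 28.7, 10.1 and 13 FPKM in T2 E-L 29 and 0.7, 0.32 and 12.3 FPKM in T2 E-L 31. It rose in the dark (log2 fold change 2.58, SE 0.52, adjusted p = 0.000124) and fell in the light (-2.43, adjusted p = 0.000234). In both E-L 31 groups it was highest in the library with the highest seed marker score. Another sucrose synthase, VIT_211s0016g00470, fell in both, to 167, 173 and 164 FPKM in T1 E-L 31 and 138, 131 and 174 FPKM in T2 E-L 31, against 626, 959 and 921 FPKM in T2 E-L 29. Over the sugar list of 48 members 10 fell and 9 rose.

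Ethylene and jasmonate signalling had more members higher than lower. In ethylene signalling 14 of 86 members rose and 5 fell, against 12 and 7 in the light. An ethylene receptor (VIT_205s0049g00090) had 38.4, 50 and 44.5 FPKM in T1 E-L 31, against 12.9, 10.8 and 11.7 FPKM in T2 E-L 29 (log2 fold change 1.82, SE 0.13, adjusted p = 5.74e-13). In jasmonate signalling 12 of 46 rose and 3 fell, against 9 and 4 in the light. A MYC2 factor (VIT_202s0025g02610), which switches on jasmonate responses, had 2.95, 6.92 and 11.7 FPKM in T1 E-L 31, against 0.24, 0 and 0 FPKM in T2 E-L 29, and TIFY 10A (VIT_209s0002g00890), a repressor of the same pathway, had 466, 239.6 and 440.2 FPKM in T1 E-L 31 and 107.7, 49.02 and 46.4 FPKM in T2 E-L 29. The gibberellin receptor GID1 (VIT_207s0104g00930) had 139.8, 114 and 146 FPKM in T1 E-L 31, against 35.9, 24.5 and 20.9 FPKM in T2 E-L 29. The factor bHLH137 (VIT_217s0000g00430), which the study lists with gibberellin signalling, had 147, 116 and 105 FPKM in T1 E-L 31, against 10.8, 12.2 and 11.9 FPKM in T2 E-L 29 and 270, 226 and 295 FPKM in T2 E-L 31. It rose less in the dark than in the light (difference -1.1, adjusted p = 9.88e-09). Gibberellin signalling as a whole had 13 of 70 members lower and 5 higher, the 5 becoming 9 without T1 E-L 31 replicate B and 10 without T2 E-L 29 replicate A.

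Abscisic acid signalling had called increases in the dark and none in the light. Of 54 members, 8 rose and 6 fell in T1 E-L 31, none rose and 2 fell in T2 E-L 31, and 9 were higher in bagged than in uncovered berries at E-L 31. Without T1 E-L 31 replicate B, the library with the highest seed marker score, 5 of the 54 rose, as in the fit on the 6 libraries, and 3 fell after median-of-ratios scaling. Brassinosteroid genes had 8 of 62 lower and 7 higher, against 11 and 4 in the light. Their share of decreases in T1 E-L 31 lay near the 12.2% over all genes tested. The 8 became 13 without T1 E-L 31 replicate A, and the 7 became 4 without that library, without T2 E-L 29 replicate C, with B and C averaged or in the fit on the 6 libraries. Salicylate genes had 6 of 31 lower and 5 higher, against 6 and 3 in the light.

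Defence-type genes rose in number. Of 41 stilbene synthases, which make resveratrol, 36 rose and none fell (median log2 fold change 2.21), against 20 in the light, and 11 were higher in bagged than in uncovered berries at E-L 31. Their summed FPKM was 1070, 581 and 735 in T1 E-L 31, against 477, 147 and 145 in T2 E-L 29 and 471, 420 and 571 in T2 E-L 31. T2 E-L 29 replicate A was thus at the level of T2 E-L 31. With the 6 libraries fitted alone 16 were called, and with B and C of T2 E-L 29 averaged 31 were called. Stilbene synthase VIT_216s0100g01150 had 4.8, 4.1 and 8.83 FPKM in T1 E-L 31, against 0.58, 0 and 0 FPKM in T2 E-L 29 and 1.18, 1.39 and 1.86 FPKM in T2 E-L 31. The family has near-identical copies, so the values of single copies are uncertain. Of 48 pathogenesis-related genes, which include the endochitinase-like gene, 20 rose and 8 fell, against 21 and 9 in the light, with 12 that rose without T1 E-L 31 replicate A, 14 with B and C of T2 E-L 29 averaged and 11 in the fit on the 6 libraries. A thaumatin-like protein (VIT_218s0001g14480), of an antifungal family, had 121, 106 and 159 FPKM in T1 E-L 31, against 23.04, 10.1 and 10.4 FPKM in T2 E-L 29 and 95.5, 112 and 139 FPKM in T2 E-L 31.

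Some genes rose in the dark, but less than in the light. MLP-like protein 28 (VIT_201s0011g05110), a member of the major latex protein family, had 360, 8.12 and 192 FPKM in T1 E-L 31, against 3.03, 0 and 0 FPKM in T2 E-L 29 and 1446, 1326 and 1635 FPKM in T2 E-L 31. The log2 fold change was 5.75 in the dark and 9.85 in the light, and the difference was -4.09 (adjusted p = 1.7e-05). Replicate B, highest in the seed genes, was lowest here. Ethylene-responsive transcription factor 1 (VIT_205s0049g00510) had 12.7, 7.34 and 21.4 FPKM in T1 E-L 31, against 9.01, 2.93 and 1.36 FPKM in T2 E-L 29 and 79.7, 55.2 and 346 FPKM in T2 E-L 31. Its rise in the dark (1.59, adjusted p = 0.00189) was kept by 14 of 17 alternatives, and its groups overlapped between T1 E-L 31 and T2 E-L 29.

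The remaining lists showed smaller or less stable changes. Of 77 heat shock proteins 32 fell and 3 rose, against 37 and 1 in the light. At E-L 31, 9 were higher and 1 was lower in bagged than in uncovered berries. The 32 became 19 without T1 E-L 31 replicate C, 21 without T2 E-L 29 replicate B, 19 without T2 E-L 29 replicate C, 19 with B and C averaged and 11 in the fit on the 6 libraries. Their summed FPKM was 5550, 5500 and 4000 in T1 E-L 31, against 3460, 9140 and 9100 in T2 E-L 29, whose replicate A lay below all T1 E-L 31 libraries. None of 17 carbon starvation markers was called. Organic acid genes had 5 of 35 lower and 1 higher, shares near those over all genes tested, against 3 and 1 in the light. Terpene synthases had 5 of 13 lower and 4 higher, against 6 and 2 in the light. Pollen and anther genes had 1 of 9 lower, a share near that over all genes tested, against 1 lower and 1 higher in the light. It was a pollen-specific SF3 protein (VIT_203s0091g01010) with 13.01, 19.8 and 8.82 FPKM in T1 E-L 31, against 118, 198 and 216 FPKM in T2 E-L 29.

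**Figure D5:**
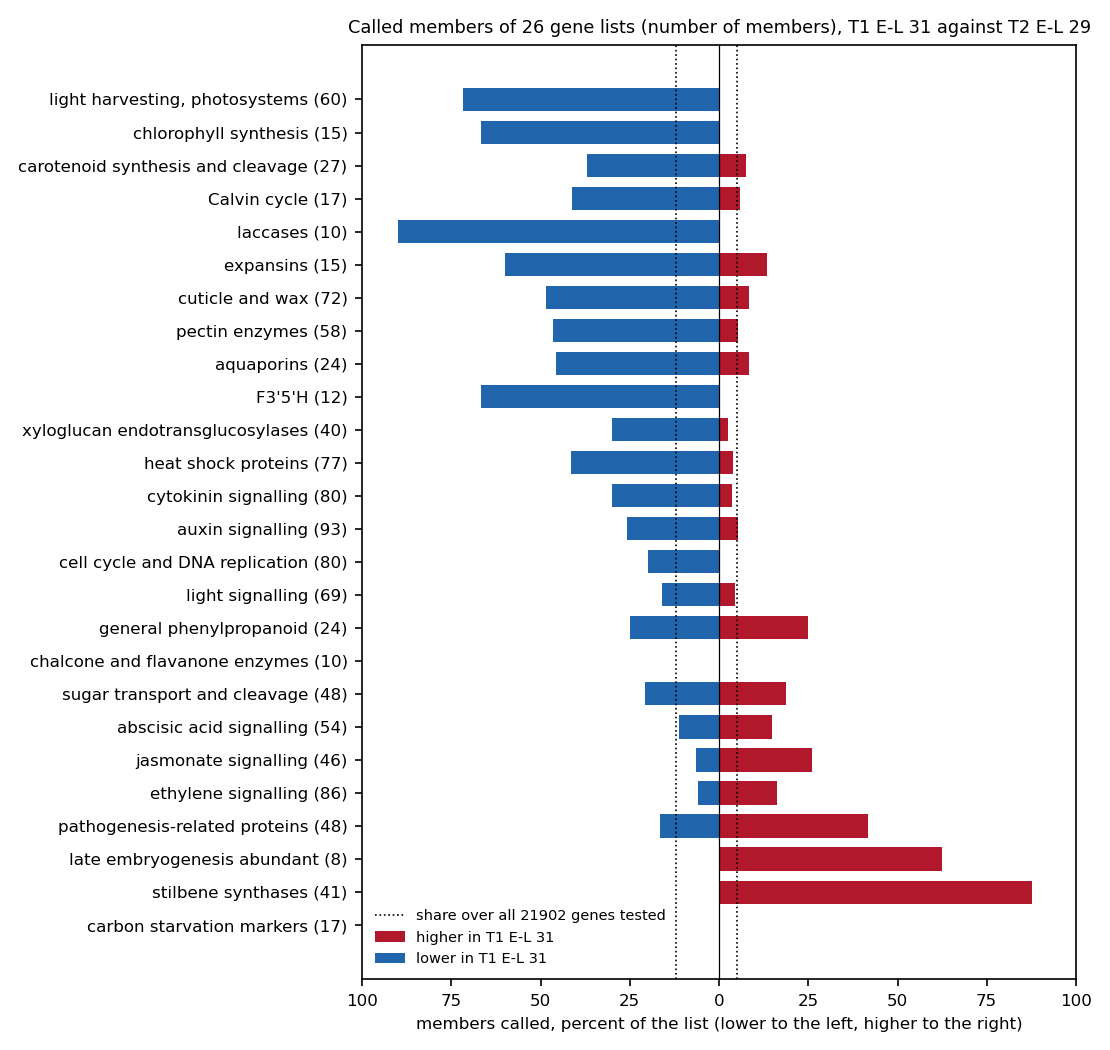
Share of each list's members called lower (left) and higher (right) in T1 E-L 31 than in T2 E-L 29, for 26 gene lists with the number of members in brackets. Dotted lines mark the 12.2% lower and 5.03% higher over all genes tested; 43 of 60 light harvesting genes and 9 of 10 laccases were called lower and 36 of 41 stilbene synthases higher.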

How the data were processed

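Transcript levels were measured by single-end RNA sequencing in 42 libraries of 14 groups. The authors aligned the reads to version 2 of the PN40024 grape genome with Bowtie (Bowtie2 2.2.5 in the submitters' processing notes) and deposited FPKM per gene and library, unfiltered and not scaled to a common total. The counting tool is not given in the sources used here. Read totals per library are listed by the study and were not used here. FPKM values carry no read counts, so the precision of single values rests on the replicates, and a 0 means listed at 0.

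A total of 26692 genes carried a BLAST hit, from which functions were read. The 21902 genes whose mean reached 1 FPKM in any group were tested on log2(FPKM + 1), a scale that understates changes of low genes, with limma 3.58.1 in R 4.3.3. The fit had a mean for each of the 14 groups, a mean-variance trend, 28 residual degrees of freedom and two-sided tests. It took the place of NOISeq, the tool of the study. It was tested on simulated data. A gene was called where its adjusted p lay below 0.05 and its change reached 1 on the log2 scale, in either direction. Nothing says whether replicates were separate vines in each case. The p-values rest on the spread between libraries pooled over all 14 groups, not on that of the groups compared alone. Replicates A and B of T1 E-L 31 and of T2 E-L 29 were the widest pairs of the series (SD of log2 ratio 0.382 and 0.379). In the fit on the 6 libraries alone, adjusted p-values were larger, for VIT_210s0003g02900 6.59e-05 in place of 1.73e-19.

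The members and the 46 gene lists were chosen with earlier results of these data known, and several lists come from the study's own tables. Named genes were the 12 largest increases and decreases (called in the fits on 42 and on 6 libraries, at least 5 FPKM, no overlap, annotated), up to 4 called members of each list, up to 8 genes a direction with the largest T1 minus T2 difference at E-L 31, and 13 enzyme, regulator and light signalling genes taken from those that the study names by identifier, without its hormone genes. Of these, 71 are described, among them the berry marker and the D1 copies, which are outside the rule. Alternatives were a pseudocount of 0.1, no filter, other scalings, fits on 6 and 9 libraries, a replicate block, robust variances and leaving out each library. The figures were drawn with matplotlib 3.10.9, and tables were made with pandas 2.3.3 and scipy 1.17.1 in Python 3.11.15.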

Additional observations from a re-analysis of the deposited data

Results flagged for a closer look

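At E-L 31 the change since E-L 29 differed between bagged and uncovered berries in 593 genes that were higher and 756 that were lower in T1 than in T2, tested as the contrast of T1 E-L 31 with T2 E-L 31 in the same limma fit. The fit on the 9 libraries called 226 higher and 537 lower. The values that follow are that difference, T1 minus T2 at E-L 31, on the log2 scale, for the genes described above.

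Among genes of photosynthesis and its supply, the difference was -2.25 and -3.51 for the LHCII type 1 genes VIT_210s0003g02900 and VIT_212s0028g00320, -1.96 for oxygen-evolving enhancer 1 and -2.68 for PsbS. It was -2 for ELIP, -2.46 for the RuBisCO small chain, -2.44 for its activase, -3.54 for the glycine cleavage H protein and -3.15 for thioredoxin M. It was -1.11 for protochlorophyllide reductase, -1.05 for violaxanthin de-epoxidase and -1.44 for ADP-glucose pyrophosphorylase. It was -1.83 and -2.98 for the D1 copies VIT_213s0019g02630 and VIT_211s0052g01680. CRY2 and HYH differed by -1.31 and -2.37.

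Genes with large increases were higher in T1: the endochitinase-like gene by 4.73, the 7S globulin by 4.41, the 2S albumin by 4.96, isocitrate lyase by 4.73, TIP3-2 by 3.72, LEA Dc3 by 3.59 and MOTHER OF FT AND TFL1 by 3.71. The nepenthesin-1 genes VIT_208s0007g02460 and VIT_208s0007g02455 differed by 4.58 and 5.36 and xyloglucan endotransglucosylase 25 by 4.07. Sucrose synthase VIT_205s0077g01930 differed by 5, having risen in the dark and fallen in the light.

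In the phenylpropanoid and flavonoid pathways the difference was 2.31 for PAL, 1.34 for C4H, 2.33 and 2.04 for the CHS genes VIT_214s0068g00920 and VIT_205s0136g00260, 1.63 for F3H, 1.4 for LAR1, 1.1 for the second LAR gene, 1.16 for MYBPA1, 3.09 for CAD and 1.43 for stilbene synthase VIT_216s0100g01150. Expansin-A8 differed by -4.56, MLP-like protein 28 by -4.09, ethylene-responsive factor 1 by -3.09 and bHLH137 by -1.1.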

How the results depend on the processing

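With the replicate block, 1099 members were higher and 2676 lower in T1 E-L 31 than in T2 E-L 29, against 1101 and 2675 without it. The letters do not pair libraries: the deviations of same-lettered T1 E-L 31 and T2 E-L 29 libraries correlated at 0.111, 0.197 and -0.181. Over the other settings the higher count ran from 759 to 1408 and the lower count from 2249 to 3121. Leaving out each library in turn gave 958 to 1408 higher and 2612 to 2797 lower. Averaging T2 E-L 29 replicates B and C, or leaving both out (759 higher and 2803 lower), was chosen after seeing the data. Without both, 866 genes in place of 1375 were higher in T2 E-L 31 than in T2 E-L 29. For T1 against T2 at E-L 31, the fit on the 9 libraries called 226 genes higher in place of 593. Leaving out T1 E-L 31 replicates in turn, also added after seeing the data, gave 368 to 807. After median-of-ratios scaling the median change over all genes tested was -0.006 on the log2 scale, against -0.11 as deposited. Of 71 genes described, 56 kept their direction and call under every alternative. CHS VIT_214s0068g00920 changed sign without T1 E-L 31 replicate A (0.26) and without T2 E-L 29 replicate A (0.22), and CHS VIT_205s0136g00260 (0.21) and F3H VIT_204s0023g03370 (0.06) did so without T1 E-L 31 replicate A. Without T1 E-L 31 replicate B, these CHS genes and F3H had -0.91, -0.83 and -1.18, the last of them called. Without T2 E-L 29 replicates B and C, they had -1.25, -0.9 and -1.17 in the same order. The D1 copy VIT_211s0052g01680 (0.54) changed sign without T1 E-L 31 replicate C (-0.54) and without T2 E-L 29 replicates B and C (-0.49), with 1.07 as the highest value with a library left out. The D1 copy VIT_213s0019g02630 (-0.23) did so without T2 E-L 29 replicate C (0.05) and without B and C (0.19), with -0.44 as the lowest. None of the values that changed sign was called. The cause was not tested.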
